A study of Homo sapiens with 6 samples.

Results

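FGF19, FGF21 and the genes that carry their signal were followed in Hep3B, a human hepatocellular carcinoma cell line, as 9 of the 23228 genes in the RNA-seq tables. The 9 genes were taken by name, with earlier results of these data known. They are the ligand genes FGF19, FGF21 and FGF2, the receptor genes FGFR1, FGFR2, FGFR3 and FGFR4, the co-receptor gene KLB, and FGF13, which codes for an intracellular FGF homologous factor. Expression was measured in 3 control libraries, whose Hep3B cells had received lentivirus with an shRNA that has no target. The other 3 libraries, labelled PELP1-KD, came from Hep3B cells that had received lentivirus with shRNA against PELP1. Both came from one cell line in RPMI medium. The knockdown cells were kept under puromycin and used as pooled stable clones, and 2 PELP1 shRNAs are named in their protocol, so which one a library carried is uncertain. Nothing states that the 3 libraries of a group came from separate cultures, so p values here measure the spread between these libraries, which may be technical.

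Fibroblast growth factors bind receptor tyrosine kinases at the cell surface and signal through the adaptor FRS2 to RAS and the MAP kinases. Most act locally and need heparan sulfate to bind. FGF19 and FGF21 bind heparan sulfate weakly, enter the circulation and need the membrane protein β-klotho, the product of KLB, beside the receptor. In the liver, FGF19 acts mainly through FGFR4 and KLB and lowers bile acid synthesis, while FGF21 is a hormone that hepatocytes release in fasting and stress. Some liver cancers carry extra copies of the segment of chromosome 11q13 that holds FGF19 and CCND1.

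Reads on genes per library ranged from 26758363 to 34456542. Of the 23228 genes, 14537 passed edgeR's filter on low counts and were tested, with a median standard error of 0.063 for a log2 fold change. PELP1, the targeted gene, had 4893, 4914 and 5102 normalized reads in control and 4421, 4825 and 4840 in PELP1-KD. The groups did not overlap, but the PELP1-KD mean was 94.5% of the control mean (log2 fold change −0.08, SE 0.04, edgeR adjusted p = 0.101). The adjusted p was 0.0106 with the replicate number as a block and 0.018 without PELP1-KD replicate 3. PELP1 protein was not analysed here, and each direction below is that of the labels. Of the hepatocyte markers, 8 of 8 were tested, 6 lower and 2 higher at an edgeR adjusted p below 0.05. At that threshold 26.8% of all tested genes were lower and 26.8% higher. Albumin (ALB) had 347500 ± 5369 normalized reads (SD, n = 3) in control and 227270 ± 3053 in PELP1-KD (log2 fold change −0.61, edgeR adjusted p = 6.35e-14). The 2 that rose were the fetal albumin relative AFP, from 141440 ± 4100 to 218060 ± 6819 normalized reads (log2 fold change 0.63, edgeR adjusted p = 5.85e-13), and the fibrinogen gene FGB (log2 fold change 0.17, edgeR adjusted p = 1.42e-05). The summed level of these 8 genes ran from 859063 to 873566 normalized reads in control and from 754613 to 771236 in PELP1-KD. Of 8 markers of blood, endothelial and stromal cells, PTPRC, CD3E, VWF, DCN and ACTA2 had at most 10 reads in any library, and their list as a whole summed to between 1425 and 1577 normalized reads in control and between 1975 and 2093 in PELP1-KD. Without CD68, a lysosomal protein gene that accounted for most of that sum, the ranges were 100 to 116 and 95 to 120. The part of these markers in the results below was not tested.

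Of the 9 genes, 7 were tested. FGFR2 fell most, to 10.7% of its control level. FGF19, FGFR1 and FGFR3 also fell, to between 60.9% and 82.9% of control. FGF2 rose to 126% of control and KLB to 107%. FGFR4, the most abundant of the 9 transcripts per length, was at 103% of control and was not called. FGF21 and FGF13 did not pass the filter on low counts and were not tested. Thus 4 of the 7 tested genes were lower at an edgeR adjusted p below 0.05, where 26.8% of all tested genes were, and 2 were higher, where 26.8% of all tested genes were. Only FGFR2 was both called and at least 2-fold lower, which held for 4.79% of all tested genes. The groups did not overlap for 6 of the 7, against 58.8% of all tested genes. The median log2 fold change of the 7 was −0.27, and that of all tested genes was 0.004. Calls were common across all genes, so a call alone sets none of the 7 apart, and the size of each difference is given below with its interval.

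**Figure D1:**
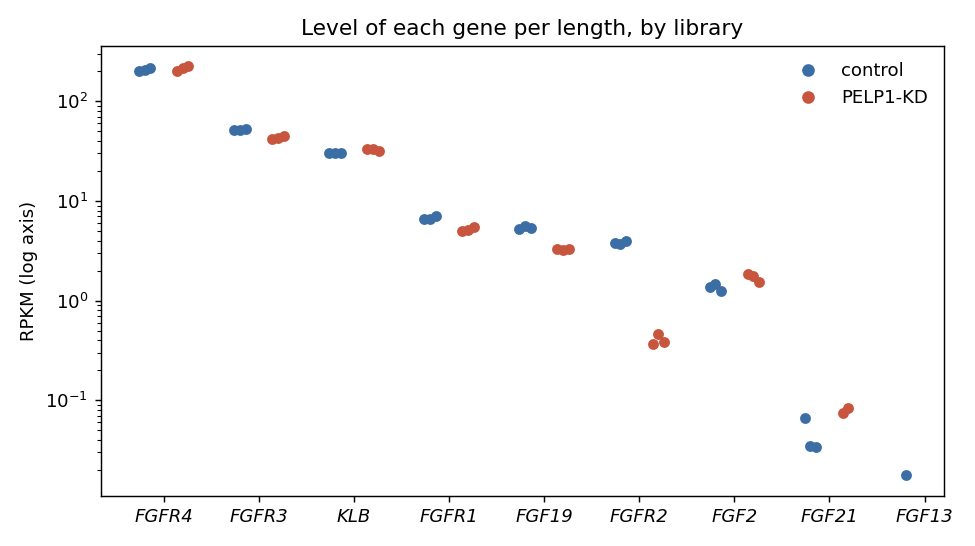
Level of each of the 9 genes in RPKM, the normalized reads per kilobase of exon and per 1e6 reads, on a log axis, one point per library, blue for control and red for PELP1-KD, in the order of the control means. Values of 0 are not drawn, which are FGF21 in PELP1-KD replicate 3 and FGF13 in 5 of the 6 libraries. The FGFR2 points drop from between 3.68 and 3.92 RPKM to between 0.368 and 0.466 RPKM, below FGF2.

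Per exon length, the 9 genes spanned a wide range of levels. In control libraries FGFR4 had a mean of 207 RPKM (normalized reads per kilobase of exon and per 1e6 reads), a level above that of 97.8% of the tested genes. FGFR3 followed at 52.3 RPKM, KLB at 30.4, FGFR1 at 6.74, FGF19 at 5.39, FGFR2 at 3.80 and FGF2 at 1.36. FGF21 had 0.0449 RPKM and FGF13 0.00589 RPKM. No 2 neighbours in this order overlapped in their control libraries, although the values of FGF21 and FGF13 rest on 4 reads and 2 reads. In the libraries labelled PELP1-KD the order was the same down to FGF19, at 3.29 RPKM. FGF2 at 1.72 RPKM then stood above FGFR2 at 0.406 RPKM, so these neighbours had changed places, and only FGF21 and FGF13 at the foot of the order overlapped.

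FGF19, the hormone ligand of the FGFR4 and KLB pair, was the most abundant FGF ligand transcript per length in both groups. In hg19 its 2137 exon bases span 69513006 to 69519106 of chromosome 11, minus strand. Control libraries had 349, 381 and 357 normalized reads of FGF19, and PELP1-KD libraries had 222, 217 and 223. The lowest control library stood well above the highest PELP1-KD library, and the PELP1-KD libraries lay within a few reads of each other. The control mean of 362 ± 16.3 compared with a PELP1-KD mean of 221 ± 3.14 (SD, n = 3 each). This was a log2 fold change of −0.71 (SE 0.08, 95% interval −0.89 to −0.54, edgeR adjusted p = 4.28e-07). Over all 11 other settings the log2 fold change stayed between −0.74 and −0.68. Since these are bulk libraries, a smaller number of cells with the transcript and less transcript per cell cannot be told apart, here or for any gene below.

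**Figure D2:**
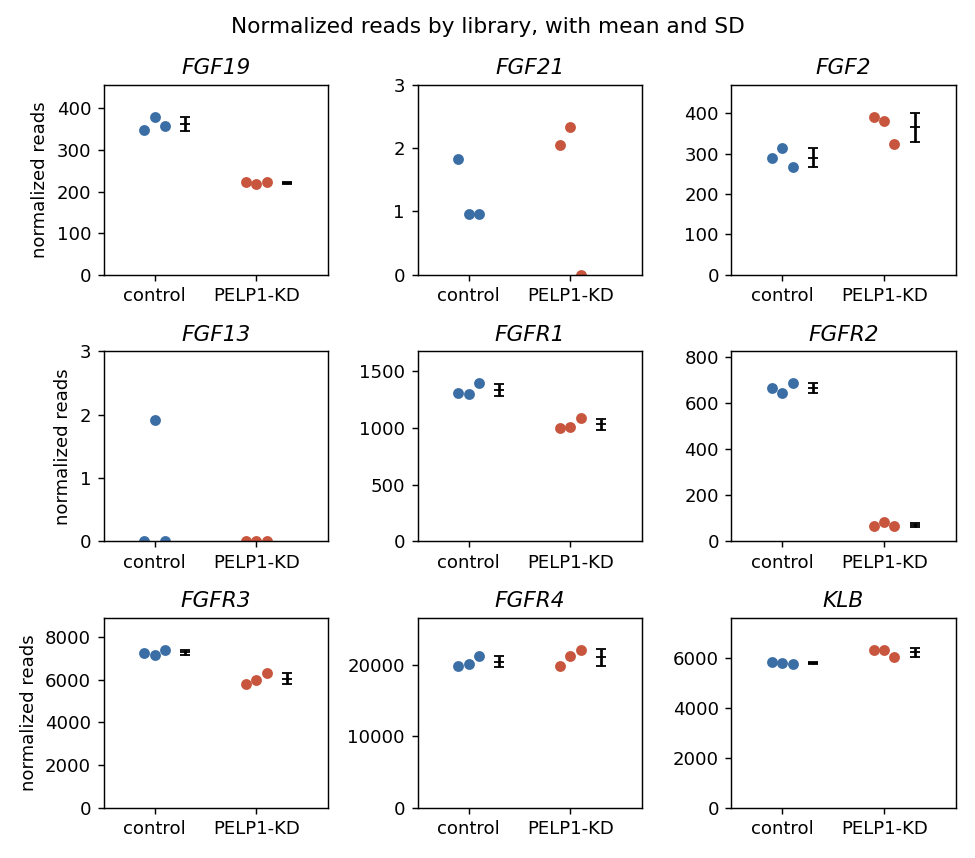
Normalized reads of each of the 9 genes, one panel per gene with its own linear axis from 0, one point per library (blue control, red PELP1-KD, replicates 1 to 3 from left to right) and, for the tested genes, mean and SD beside the points. FGF19, FGFR1, FGFR2 and FGFR3 are lower in all PELP1-KD libraries than in any control library, FGF2 and KLB are higher, and the FGFR4 points overlap.

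FGF21, the other hormone ligand of KLB, was close to undetected. In hg19 its 885 exon bases span 49259344 to 49261582 of chromosome 19, plus strand. Control libraries gave 2, 1 and 1 reads of FGF21 and PELP1-KD libraries gave 2, 2 and 0, so the groups overlapped. The ratio of control to PELP1-KD reads, scaled to library size, was 0.891, with an exact 95% interval of 0.166 to 4.78 that covers counting error only. A difference between the groups was not detectable at this depth.

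FGF2, a locally acting ligand that binds several receptors and heparan sulfate, was the other ligand gene that could be tested. In hg19 it spans 123747863 to 123819390 of chromosome 4, plus strand. Its normalized reads were 290, 314 and 266 in control and 392, 380 and 324 in PELP1-KD. The highest control library and the lowest PELP1-KD library lay near each other without overlap. The mean rose from 290 ± 24.1 to 365 ± 36.6 (SD, n = 3 each), and the log2 fold change was 0.33 (SE 0.09, 95% interval 0.14 to 0.52, edgeR adjusted p = 0.00452). In the annotation, 637 of the 6774 exon bases of FGF2 lie opposite exons of NUDT6, a gene on the other strand. The reads were counted by strand, and NUDT6 itself had 108 ± 13.5 normalized reads in control and 93.6 ± 4.70 in PELP1-KD (log2 fold change −0.21, edgeR adjusted p = 0.223).

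Of the 15 other FGF ligand genes, 0 passed the filter on low counts. No read was found for 6 of them in any library, and the highest total over the 6 libraries was 43 reads. Together these 15 genes had 141 reads, where FGF19 alone had 1778 and FGF2 had 1956. FGF1, FGF3, FGF4, FGF6, FGF10 and FGF16 were the 6 without a read, and 0 reads in a group allow up to 3. FGF3 and FGF4 lie beside FGF19 on 11q13. Singled out after their values were seen, FGF17 had 13 reads in control and 27 in PELP1-KD, a ratio of control to PELP1-KD of 0.429 scaled to library size (exact 95% counting interval 0.203 to 0.862), and FGF9 had 1 and 7 reads, a ratio of 0.127 (interval 0.00282 to 0.99). FGF17 passed the filter in 4 of the 6 fits without 1 library and was called higher in 1 of them, without PELP1-KD replicate 3 (log2 fold change 1.46, edgeR adjusted p = 0.0333). Its edgeR adjusted p was between 0.0631 and 0.23 in the other 3 and 0.0901 with no filter.

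Of the 4 receptor genes, 3 were called lower, where 26.8% of all tested genes were, and FGFR4 was not called. FGFR4 and FGFR3 are the main receptors of these cells by RNA, and FGFR1 and FGFR2 are minor ones. FGFR2 showed the largest change of the 9 genes. In hg19 its 5573 exon bases, 0 of them shared with another gene, span 123237844 to 123357972 of chromosome 10, minus strand. Control libraries had 667, 644 and 687 normalized reads of FGFR2, and PELP1-KD libraries had 64.5, 81.7 and 66.9. Each PELP1-KD library thus held a small part of the level in any control library, and the replicates of each group were close. The control mean was 666 ± 21.4 and the PELP1-KD mean 71.0 ± 9.30 (SD, n = 3 each), 9.38-fold higher in control, with a log2 fold change of −3.24 (SE 0.10, 95% interval −3.44 to −3.03, edgeR adjusted p = 5.72e-16). Of all tested genes, 0.75% had a lower log2 fold change. Leaving out any library gave between −3.34 and −3.17. The counts sum all exons of the gene, so the epithelial and mesenchymal splice forms of FGFR2, which bind different ligands, cannot be told apart.

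FGFR1, the receptor through which FGF21 acts with KLB in fat tissue, spans 38268656 to 38326352 of chromosome 8, minus strand. It had 1311, 1299 and 1397 normalized reads in control and 1000, 1005 and 1088 in PELP1-KD. Both groups had their highest value in replicate 3, and the groups did not overlap. Its level fell from 1335 ± 53.3 to 1031 ± 49.3 (SD, n = 3 each), and the log2 fold change was −0.37 (SE 0.05, 95% interval −0.48 to −0.26, edgeR adjusted p = 7.04e-06).

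FGFR3 spans 1795039 to 1810599 of chromosome 4, plus strand. Its normalized reads were 7268, 7181 and 7416 in control and 5816, 5980 and 6324 in PELP1-KD. The spread was wider in the PELP1-KD libraries, all of which lay below every control library. The means were 7288 ± 119 and 6040 ± 259 (SD, n = 3 each), and the log2 fold change was −0.27 (SE 0.04, 95% interval −0.35 to −0.19, edgeR adjusted p = 5.01e-06).

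FGFR4, the liver's main receptor for FGF19, spans 176513921 to 176525126 of chromosome 5, plus strand. It had 19898, 20194 and 21318 normalized reads in control and 19810, 21277 and 22183 in PELP1-KD. The groups overlapped, with a PELP1-KD library both lowest and highest of the 6. The means were 20470 ± 749 and 21090 ± 1198 (SD, n = 3 each), and the log2 fold change was 0.04 (SE 0.04, 95% interval −0.04 to 0.12, edgeR adjusted p = 0.363). Without PELP1-KD replicate 1 the log2 fold change was 0.09 with an edgeR adjusted p of 0.0407, which passes the threshold.

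The windows of 250 bases before the transcription start, from RefSeq on GRCh38.p14, are shown for the receptor gene that fell most (FGFR2), for the 2 abundant receptor genes beside it (FGFR3 and FGFR4), and for FGF21. The strand is that of the gene, read 5′ to 3′. Capitals mark the GC box, GGGCGG or CCGCCC, a letter pattern bound by SP1-type factors, and in FGF21 the pattern TGATGCAA or TTGCATCA, the form of element that ATF4 binds.
FGFR2, chr10:121598445-121598694, minus strand: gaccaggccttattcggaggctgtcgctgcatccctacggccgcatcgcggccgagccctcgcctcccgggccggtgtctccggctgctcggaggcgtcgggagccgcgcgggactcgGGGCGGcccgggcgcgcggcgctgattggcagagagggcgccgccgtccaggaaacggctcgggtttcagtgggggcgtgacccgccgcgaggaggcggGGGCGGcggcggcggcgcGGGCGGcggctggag
FGFR3, chr4:1793043-1793292, plus strand: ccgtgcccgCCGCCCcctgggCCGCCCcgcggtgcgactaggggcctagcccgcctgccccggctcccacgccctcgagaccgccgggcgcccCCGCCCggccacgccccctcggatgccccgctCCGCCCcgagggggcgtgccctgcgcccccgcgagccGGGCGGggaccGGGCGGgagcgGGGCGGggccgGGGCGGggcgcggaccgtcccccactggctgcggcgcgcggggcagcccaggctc
FGFR4, chr5:177086665-177086914, plus strand: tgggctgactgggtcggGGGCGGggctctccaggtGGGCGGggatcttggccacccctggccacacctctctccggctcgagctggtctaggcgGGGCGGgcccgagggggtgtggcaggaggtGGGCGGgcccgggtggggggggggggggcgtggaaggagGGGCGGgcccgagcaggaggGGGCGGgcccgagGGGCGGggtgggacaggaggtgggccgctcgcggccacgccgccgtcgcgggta
FGF21, chr19:48755274-48755523, plus strand: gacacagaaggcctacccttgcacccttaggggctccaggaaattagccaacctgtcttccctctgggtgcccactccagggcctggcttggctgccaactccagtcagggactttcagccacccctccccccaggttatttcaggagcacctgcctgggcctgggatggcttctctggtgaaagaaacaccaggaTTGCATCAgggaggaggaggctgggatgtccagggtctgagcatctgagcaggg

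All 3 receptor windows are rich in GC, at 78.4% for FGFR2, 86.8% for FGFR3 and 79.6% for FGFR4, where the median of 27050 such windows was 57.6%. They hold 42, 40 and 24 CpG dinucleotides, against a median of 10. The GC box occurs 3 times in the FGFR2 window, 8 times in that of FGFR3 and 7 times in that of FGFR4, on either strand, and 42.3% of all windows hold at least 1. The FGF21 window holds the ATF4-type pattern once, as 0.824% of all windows do, and 0 CpG. The KLB window, not shown, differs from these, with 39.2% GC, 5 CpG and 0 GC boxes. Windows matched 7 of the 9 genes, all but FGF19 and FGFR1. FGFR2 has 5 starts in the table and FGFR4 has 2, of which the first listed was read. A match is a description of letters, not a measured site.

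**Figure D3:**
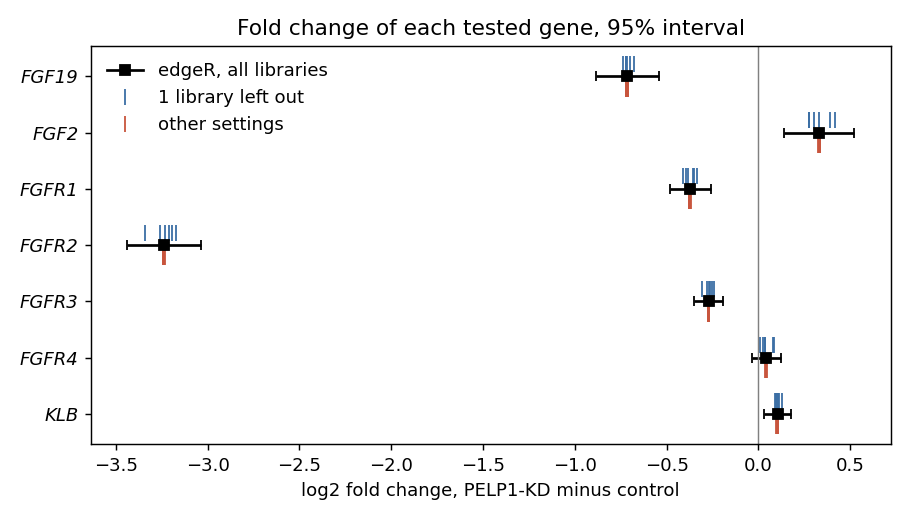
Log2 fold change, PELP1-KD minus control, of the 7 tested genes, with squares and bars for the value and its 95% interval, blue ticks for fits without 1 library and red ticks for the other normalizations, tools, filters and the replicate block. FGFR2 stands at −3.24, far from the other 6, and the intervals of all but FGFR4 exclude 0.

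FGFR4 made up a larger part of the receptor RNA in the libraries labelled PELP1-KD. FGFR4 itself was at 103% of control and not called (edgeR adjusted p = 0.363), while FGFR1, FGFR2 and FGFR3 were lower. The share depends on all 4 genes and is not a separate change of FGFR4. Of the summed RPKM of FGFR1 to FGFR4, FGFR4 made up 76.3%, 76.8% and 77.1% in the control libraries and 81.0%, 81.7% and 81.4% in PELP1-KD. The groups did not overlap, and the mean share was 4.61 percentage points higher in PELP1-KD, at 81.4 ± 0.343% against 76.7 ± 0.395% (SD, n = 3 each). The two-sided exact permutation p was 0.1, and no lower p is possible with 3 libraries in each group, so the design cannot reach 0.05. The share of FGFR3 was 19.4 ± 0.374% in control and 16.5 ± 0.299% in PELP1-KD. FGFR1 made up 2.50 ± 0.0291% and 1.98 ± 0.0585%. FGFR2 made up 1.41 ± 0.0316% and 0.155 ± 0.0198%. The sum of the 4 genes was 270 ± 8.67 RPKM in control and 262 ± 14.1 RPKM in PELP1-KD (two-sided exact permutation test, p = 0.4), and the groups overlapped. FGFR2 had been a small part of that sum in control. FGFR4 was between 30.4 and 31.2 times the RPKM of FGFR1 in the control libraries and between 39.7 and 42.5 times in PELP1-KD.

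**Figure D4:**
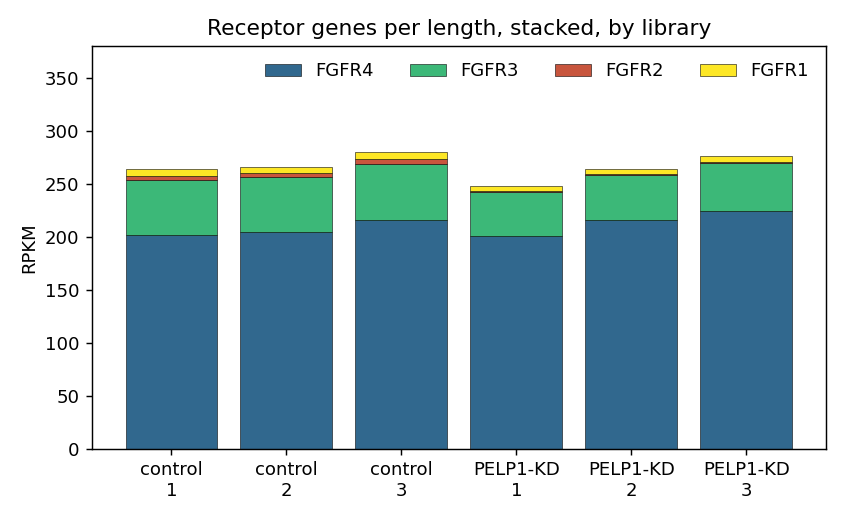
Stacked RPKM of the 4 receptor genes in each library on a linear axis from 0, with FGFR4 in dark blue, FGFR3 in green, FGFR2 in red and FGFR1 in yellow. FGFR4 is the tall lower block in each library, and the red FGFR2 band, visible in control, shrinks to a line in PELP1-KD.

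KLB, the β-klotho gene that both hormones need, spans 39408473 to 39453153 of chromosome 4, plus strand. Its normalized reads were 5845, 5785 and 5780 in control and 6344, 6336 and 6031 in PELP1-KD. The control libraries were nearly equal, and each PELP1-KD library lay above them. The mean rose from 5803 ± 36.1 to 6237 ± 179 (SD, n = 3 each), and the log2 fold change was 0.10 (SE 0.04, 95% interval 0.03 to 0.18, edgeR adjusted p = 0.0197). The call was lost in 4 of the 6 fits without 1 library, where the edgeR adjusted p was 0.0522 without control replicate 1, 0.0718 without control replicate 2, 0.0521 without PELP1-KD replicate 1 and 0.0963 without PELP1-KD replicate 2. With the replicate number as a block it was 0.000696. The ratio of KLB to FGFR4 RPKM was 0.152, 0.148 and 0.140 in control and 0.166, 0.154 and 0.141 in PELP1-KD, so the groups overlapped.

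FGF13, whose product stays in the cell and binds voltage-gated sodium channels, spans 137713734 to 138287185 of chromosome X, minus strand. It had 0, 2 and 0 reads in control and 0 reads in each PELP1-KD library, so no level or ratio can be given. Of the other genes of this class, FGF12 fell from 108 ± 19.0 to 58.1 ± 1.55 normalized reads (SD, 3 libraries each; log2 fold change −0.90, edgeR adjusted p = 0.00012). FGF11 had 379 ± 9.31 and 437 ± 41.7 normalized reads (log2 fold change 0.21, edgeR adjusted p = 0.0318). The FGF11 call was lost with DESeq2 and whenever any library but PELP1-KD replicate 2 was left out, with an edgeR adjusted p of up to 0.11.

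Beyond the 9 genes, lists of 117 genes were read, of which 89 were tested. They cover the FGF pathway, bile acid genes, genes linked to the control of FGF21, and the chromosomal neighbours of FGF19. Of these 89, 38 were lower, 22 were higher and 29 were not called, with a median log2 fold change of −0.08. The neighbours were listed by position, not as pathway genes. They supplied 2 of the 38 lower genes and 3 of the 22 higher genes, among the latter CCND1, which is also listed as a MAP kinase target. Of all tested genes 26.8% were lower and 26.8% higher, so the higher count lay near the background. These shares are also the background for the counts of each list below. At least 2-fold changes were called for 5 lower and 2 higher genes, the latter SOS1 and the 11q13 neighbour ANO1. Among all 14537 tested genes such changes were called for 697 lower and 415 higher. The groups did not overlap for 63 of the 89, where 58.8% of all tested genes did not overlap.

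Co-receptors and binding proteins had 4 of 9 genes tested, of which 2 fell and 2 were not called, with a median log2 fold change of −0.40. FLRT2, which codes for a membrane protein with FGFR-binding relatives, fell from 663 ± 24.3 to 449 ± 8.67 normalized reads (SD, 3 libraries each; log2 fold change −0.56, edgeR adjusted p = 5.59e-07). FGFRL1, a receptor without a kinase domain, fell from 3529 ± 90.0 to 2854 ± 170 (log2 fold change −0.31, edgeR adjusted p = 1.03e-05). Among the genes below the filter, singled out after their values were seen, KL (klotho, the co-receptor of FGF23) had 15 reads in control and 1 in PELP1-KD, a ratio of 13.4 scaled to library size with an exact 95% counting interval of 2.06 to 562. FLRT1 had 21 and 2 reads, a ratio of 9.35 (interval 2.29 to 82), and LCTL, a klotho-like gene, had 22 and 5, a ratio of 3.92 (interval 1.45 to 13.2). The other genes of this list below the filter went the other way. FGFBP2 had 1 read in control and 5 in PELP1-KD, a ratio of 0.178 (interval 0.00377 to 1.59), and FGFBP1 had 0 and 1. These intervals leave out the spread between libraries. DESeq2 called 4 genes of this list lower and the fit without a filter 5.

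Enzymes that build and modify heparan sulfate had 10 of 12 genes tested, of which 7 fell and 3 were not called, with a median of −0.24. The share called lower among all tested genes was 26.8%. HS6ST2, a 6-O-sulfotransferase, fell from 1769 ± 21.2 to 915 ± 68.7 normalized reads (SD, 3 libraries each; log2 fold change −0.95, edgeR adjusted p = 1.48e-11). EXT1, a chain polymerase, fell from 2877 ± 58.4 to 2063 ± 67.2 (log2 fold change −0.48, edgeR adjusted p = 1e-08). NDST1, an N-deacetylase and sulfotransferase, had a log2 fold change of −0.24 (edgeR adjusted p = 2.24e-05).

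Adaptors and transducers, from FRS2 to the MAP kinases, had all 20 genes tested, with 2 lower, 4 higher and 14 not called and a median of −0.03. SOS1, which loads RAS with GTP, rose from 1754 ± 18.7 to 4877 ± 293 normalized reads (SD, 3 libraries each; log2 fold change 1.47, edgeR adjusted p = 1.22e-15). PLCG1, a phospholipase that FGF receptors bind, had a log2 fold change of 0.26 (edgeR adjusted p = 2.01e-05), and the RAF kinase gene BRAF had 0.28 (edgeR adjusted p = 0.00073). SHC1, an adaptor, fell from 6093 ± 85.5 to 4495 ± 125 (log2 fold change −0.44, edgeR adjusted p = 4.88e-09), and MAPK3, which codes for ERK1, had −0.19 (edgeR adjusted p = 0.00507). With the replicate block 8 were lower and 7 higher. Without PELP1-KD replicate 3, 4 were lower and 7 higher. Calls over all tested genes rose as well, from 3889 lower and 3899 higher to 4415 and 4413 with the block. Without PELP1-KD replicate 3 they were 3989 and 3949.

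Feedback and target genes of the MAP kinase branch had 15 of 16 genes tested, of which 8 fell, 6 rose and 1 was not called, with a median of −0.16. Among all tested genes 26.8% were lower and 26.8% higher. EGR1, an early response transcription factor, fell from 774 ± 50.8 to 144 ± 4.64 normalized reads (SD, 3 libraries each; log2 fold change −2.42, edgeR adjusted p = 5.12e-15). DUSP6, the cytoplasmic phosphatase of ERK, fell from 1168 ± 31.2 to 732 ± 28.5 (log2 fold change −0.67, edgeR adjusted p = 3e-09). ETV1, an ETS factor induced by FGF, had a log2 fold change of −0.68 (edgeR adjusted p = 3.13e-08). In the other direction DUSP4, a nuclear phosphatase of MAP kinases, rose from 884 ± 35.0 to 1240 ± 34.3 (log2 fold change 0.49, edgeR adjusted p = 1.77e-07). CCND1 (cyclin D1) had 0.16 (edgeR adjusted p = 0.000326) and DUSP5, another ERK phosphatase, 0.20 (edgeR adjusted p = 0.012). The DUSP5 call was lost without control replicate 1 and without PELP1-KD replicate 2, with an edgeR adjusted p of up to 0.0832. Without control replicate 1 or 2 only 3 genes of the list were higher, and without PELP1-KD replicate 2 there were 4.

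**Figure D5:**
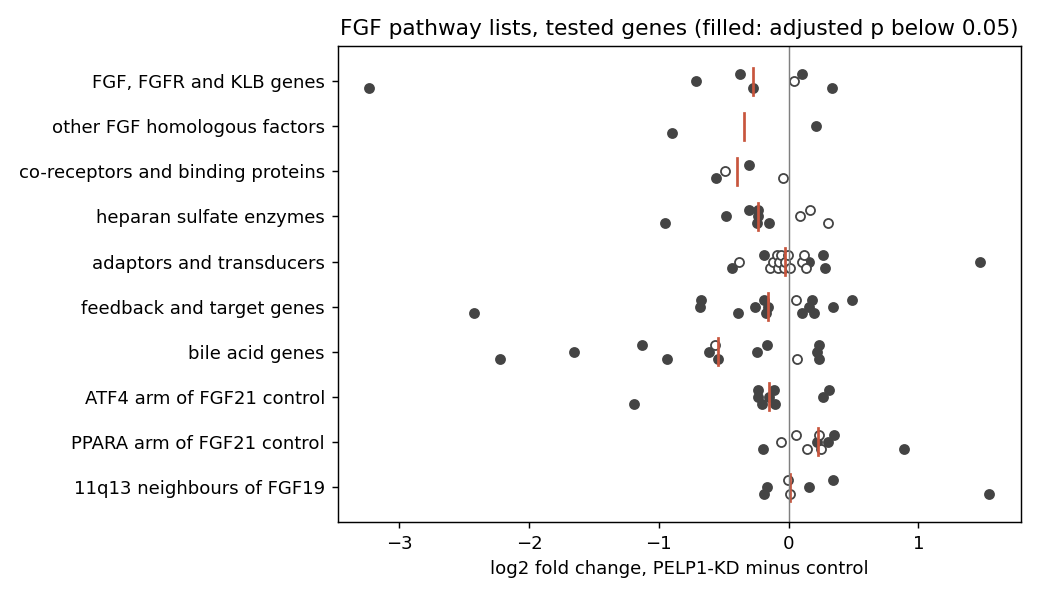
Log2 fold change, PELP1-KD minus control, of each tested gene in 10 groups of genes, filled where the edgeR adjusted p was below 0.05 and open where it was not, with a red line at the median of each group. EGR1 (−2.42) and NR0B2 (−2.23) lie far to the left in their lists, SOS1 (1.47) and ANO1 (1.55) far to the right, and the PPARA list has the only median well above 0, at 0.22.

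The bile acid genes, a list of synthesis, transport and control genes, had 13 of 16 tested. Of these 13, 8 fell, 3 rose and 2 were not called, with a median of −0.54. The shares over all tested genes were 26.8% lower and 26.8% higher. Whether FGF19 acts on these genes in Hep3B was not tested. NR0B2, which codes for the repressor SHP, fell from 400 ± 24.7 to 84.9 ± 12.1 normalized reads (SD, 3 libraries each; log2 fold change −2.23, edgeR adjusted p = 1.1e-12). CYP7B1, an oxysterol hydroxylase, was low in both groups and fell from 46.9 ± 10.1 to 14.7 ± 3.91 (log2 fold change −1.65, edgeR adjusted p = 4.29e-05). OSTBETA, a subunit of the basolateral bile acid exporter, fell from 1448 ± 37.3 to 945 ± 42.5 (log2 fold change −0.62, edgeR adjusted p = 4.87e-09). HNF4A, a liver transcription factor, had a log2 fold change of 0.23 (edgeR adjusted p = 1.37e-05), the canalicular exporter gene ABCC2 also had 0.23 (edgeR adjusted p = 3.33e-05), and NR5A2, a nuclear receptor, had 0.22 (edgeR adjusted p = 0.000424). CYP7A1, the rate-limiting enzyme gene of bile acid synthesis that FGF19 lowers in liver, had 4 reads in all control libraries and 0 in PELP1-KD, too few to compare.

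Genes linked to the control of FGF21 were split by arm. In the ATF4 arm, which answers amino acid and protein folding stress, all 9 genes were tested, 7 lower and 2 higher, with a median of −0.15. For both arms the background was 26.8% of all tested genes lower and 26.8% higher. CHAC1, which breaks down glutathione, fell from 304 ± 22.3 to 134 ± 15.6 normalized reads (SD, 3 libraries each; log2 fold change −1.19, edgeR adjusted p = 1.11e-08). ASNS (asparagine synthetase) had a log2 fold change of −0.24 (edgeR adjusted p = 0.000397) and the stress kinase gene EIF2AK4 also had −0.24 (edgeR adjusted p = 0.000526). DDIT3, a stress transcription factor, had 0.31 (edgeR adjusted p = 0.000154) and SESN2, a leucine sensor, 0.27 (edgeR adjusted p = 0.000967). The count of lower genes was 3 without control replicate 2 and 4 without PELP1-KD replicate 1. In the PPARA arm, which answers fasting, all 10 genes were tested, with 1 lower, 4 higher and 5 not called and a median of 0.22. CREB3L3, a hepatic transcription factor, rose from 2525 ± 121 to 4668 ± 196 (log2 fold change 0.89, edgeR adjusted p = 1.93e-12). CPT1A, the gate of mitochondrial fatty acid oxidation, had a log2 fold change of 0.35 (edgeR adjusted p = 7.27e-07), and MLXIPL, a carbohydrate-responsive factor, had −0.20 (edgeR adjusted p = 0.000711). FGF21 itself stayed at 4 reads in each group.

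The called genes around FGF19 on 11q13 went both ways. Of 10 genes, 7 were tested, with 2 lower, 3 higher and 2 not called and a median of 0.01. ANO1, a chloride channel gene of the same segment, rose from 403 ± 28.8 to 1176 ± 9.37 normalized reads (SD, 3 libraries each; log2 fold change 1.55, edgeR adjusted p = 6.35e-14). ORAOV1 had 0.34 (edgeR adjusted p = 2.62e-05). TPCN2, a lysosomal channel gene, had −0.19 (edgeR adjusted p = 0.00114) and FADD, a death receptor adaptor gene, −0.16 (edgeR adjusted p = 0.00518).

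As a description over the 6 libraries, the genes whose log2 CPM correlated most with that of FGF19 were ENPP2 (Pearson r 0.9994), TTYH1 (0.9993) and NCAPD2 (0.9992). Their log2 fold changes were −0.51, −7.94 and −0.16, against −0.71 for FGF19, so r does not reflect the size of the change. The 6 points fall into 2 groups, and 724 genes had an r above 0.98, so a high r with FGF19 sets few genes apart. For FGFR4 the nearest were TUBGCP2 (0.9907), MSRB2 (0.9876) and LOC100507567 (0.9829), and 5 genes had an r above 0.98. FGF21 had too few reads for such a comparison.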

How the data were processed

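RNA of Hep3B cells was sequenced in 6 libraries, 3 control and 3 labelled PELP1-KD, grouped by their labels. The authors deposited estimated counts per gene on hg19, 1 table per library and not normalized, from featureCounts 1.5.0-p1 (per the file headers), with strand used and mapping quality of at least 2 required. Reads matching several places or genes were shared out as fractions, so between 10.6% and 13.3% of a library's values were not whole, among them those of FGFR3, FGFR4 and KLB in 4 or 5 of 6 libraries. Values were rounded to whole numbers. The submitters' processing notes also name HISAT2, whereas the paper names TopHat2 and HTSeq. The sources also differ on RNA extraction, mRNA selection or ribosomal RNA removal, and single or paired reads.

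Groups were compared with edgeR 4.0.16 in R 4.3.3 (TMM, filterByExpr, robust quasi-likelihood test), with Benjamini-Hochberg adjustment over 14537 genes. The study's thresholds are an adjusted p of 0.05 and a 2-fold change. For normalized reads, each library's TMM-scaled size was set to the geometric mean of all 6. RPKM is normalized by library size and exon length. Standard errors were derived from the F statistic of each test. Intervals of read ratios are exact binomial on the summed reads and cover counting error only. For a group without a read, up to 3 reads were allowed. Depth gave a median standard error of 0.063. In simulated counts with 200 genes changed 2-fold, edgeR recovered 200 and made 10 false calls, and DESeq2 recovered 198 with 10 false calls. Far fewer genes changed there than were called in these data, so it does not test error rates under such conditions.

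The 9 genes and the lists were chosen with earlier results of these data known. Named genes are the 9 genes, PELP1, the 3 called genes of each list with the smallest p in each direction, and the 3 genes most correlated with FGF19, FGF21 and FGFR4. Of these, 1 gene is not reported here. Alternatives were DESeq2's size factors, DESeq2 1.42.0, other filters, the replicate number as a block, and leaving out each library. Over 6370 genes with a log2 CPM above 5, deviations from the group mean correlated by 0.336, 0.247 and 0.666 between libraries of the same number. Control 2 with PELP1-KD 1 had 0.418 and control 1 with PELP1-KD 2 had 0.244, so only replicate 3 of both groups stands apart, and the correlations do not separate numbers 1 and 2. The main fit did not pair the libraries. Because each same-number correlation exceeded 0.1, the replicate number was used as a block in an alternative fit only. Promoter windows came from RefSeq on GRCh38.p14. Coordinates on the 2 builds were not compared.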

Additional observations from a re-analysis of the deposited data

How the results depend on the processing

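FGF19, FGFR1, FGFR2 and FGFR3 were lower and FGF2 higher at an adjusted p below 0.05 under each of the 11 alternatives. The number of the 9 genes called higher ran from 1 to 2 when a library was left out, being 1 without control replicate 1, control replicate 2 or PELP1-KD replicate 2, through the loss of the KLB call. Without PELP1-KD replicate 1 the KLB call was also lost and the FGFR4 call gained. With the replicate block 4 of the 9 genes were lower and 2 higher, as without it, and no call among them changed. Of the 117 listed genes, 44 were lower and 27 higher with the replicate block. Over all 14537 tested genes the block gave 4415 lower and 4413 higher, against 3889 and 3899 in the main fit. With DESeq2, 36 listed genes were lower and 20 higher, where 3554 and 3339 of all 16505 tested genes were. When a library was left out, between 32 and 38 listed genes were lower and between 17 and 26 higher. Over all tested genes these fits gave between 3387 and 3989 lower and between 3379 and 3949 higher. The FGFR4 share was higher in PELP1-KD by 5.91 percentage points on reads without length scaling and between 4.4 and 4.8 when a library was left out. DESeq2's size factors moved the median log2 fold change of all genes from 0.004 to 0.001. Depth limits FGF21, FGF13 and the 15 other ligand genes, which had too few reads for edgeR's filter. With no filter FGF21 had an adjusted p of 0.936 and FGF13 of 0.358, and FGF17 was called only without PELP1-KD replicate 3.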
